A study of Mus musculus with 6 samples.

Results

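The 9 loci described here are genes of the circadian clock loop: Per1, Per2, Cry1, Cry2, Nr1d1, Dbp, Nfil3, Bhlhe40 and Clock. They were chosen by name, and each was given a fixed window in mouse build mm39 that spans the gene with about 10 kb on each side. Every deposited H3K27ac peak that overlaps a window was kept. This gave 22 of 29276 wild-type peaks, 20 of 25666 Bmal1KO peaks and 16 of 24477 Mfp2KO peaks. Peaks of the 3 lists that overlap were joined into regions, and 24 of 39754 such regions lie in the windows.

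H3K27ac, acetylation of histone H3 at lysine 27, marks active promoters and enhancers. It was mapped by chromatin immunoprecipitation and sequencing (ChIP-seq) in RAW264.7, a mouse line that resembles macrophages, in cells that were wild type (titled Naive), Bmal1 knockout or Mfp2 knockout. MFP2 is a peroxisomal β-oxidation enzyme. A single ChIP library and a single input library were made per genotype, so a difference between genotypes is a difference between single libraries and none was tested. The labels do not say how the knockouts were made, whether each is 1 clone, or when in the circadian cycle the cells were collected, and they name no stimulus.

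In the circadian loop, BMAL1 and CLOCK form a dimer that binds E-boxes, short DNA elements, and activates the Per, Cry, Nr1d1, Dbp and Bhlhe40 genes. PER and CRY proteins then inhibit this dimer and close the negative limb. REV-ERBα, the product of Nr1d1, represses Bmal1 transcription and other genes with ROR elements. DBP activates and NFIL3 represses genes with D-boxes, and DEC1, the product of Bhlhe40, competes at E-boxes. In macrophages this clock is known to shape the daily timing of inflammatory responses.

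Upstream promoter sequence was printed for the 4 members in which an E-box or its common variant was found, since these are the elements that BMAL1 binds. The sequences are the 250 bases before an annotated start, read 5′ to 3′ on the gene's strand, from RefSeq in build GRCm38.p6, and their positions cannot be set beside the mm39 positions of the peaks. Capitals mark the E-box CACGTG and the variant CACGTT, which reads AACGTG on the other strand. They lie at chr11:69098699-69098948 (plus strand, Per1), chr10:85185055-85185304 (minus, Cry1), chr2:92434070-92434319 (minus, Cry2) and chr11:98775378-98775627 (minus, Nr1d1).
Per1: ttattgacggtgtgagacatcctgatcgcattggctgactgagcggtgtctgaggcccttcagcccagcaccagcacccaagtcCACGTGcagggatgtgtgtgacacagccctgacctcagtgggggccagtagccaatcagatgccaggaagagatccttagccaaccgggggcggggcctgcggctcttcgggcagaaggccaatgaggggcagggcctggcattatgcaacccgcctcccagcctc
Cry1: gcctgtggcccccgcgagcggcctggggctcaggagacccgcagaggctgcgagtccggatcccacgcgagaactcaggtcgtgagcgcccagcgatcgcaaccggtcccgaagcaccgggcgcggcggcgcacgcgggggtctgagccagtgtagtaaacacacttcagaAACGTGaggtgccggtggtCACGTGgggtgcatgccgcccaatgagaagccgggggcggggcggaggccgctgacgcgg
Cry2: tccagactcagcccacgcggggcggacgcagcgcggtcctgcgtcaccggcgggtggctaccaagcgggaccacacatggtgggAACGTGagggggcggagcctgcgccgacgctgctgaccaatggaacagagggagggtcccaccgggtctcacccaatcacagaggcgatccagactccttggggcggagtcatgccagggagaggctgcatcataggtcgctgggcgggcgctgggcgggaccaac
Nr1d1: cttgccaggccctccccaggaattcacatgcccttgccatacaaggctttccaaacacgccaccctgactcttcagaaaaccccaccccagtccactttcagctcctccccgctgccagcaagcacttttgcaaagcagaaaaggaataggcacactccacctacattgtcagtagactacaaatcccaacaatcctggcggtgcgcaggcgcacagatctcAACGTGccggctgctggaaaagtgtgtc

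The promoter table held 10 starts for 7 of the 9 genes. Within 300 bases around a start (250 before and 50 after), searched on both strands, CACGTG was found in 2 of these 10 promoters (Per1 and Cry1) and in 7.15% of all 32851 promoters. With the variant added, a choice made after the sequences were seen, 4 of the 10 member promoters, 1 each in 4 genes, held at least 1 match, against 11.4% of all promoters. Cry1 held both forms, with the E-box 60 to 55 bases before the start and the variant 79 to 74 bases before it. The variant lay 28 to 23 bases before the start in Nr1d1 and 166 to 161 in Cry2. The E-box of Per1 also lay 166 to 161 bases before the annotated start whose sequence is printed above. The other Per1 promoter listed held no match, and neither was placed against the mm39 start used for the peaks. The D-box letters TTATGTAA and TTACGTAA were in none of the 7 genes' promoters and in 1.06% of all, and the REV-ERB/ROR element was in none and in 0.219% of all. Dbp, Nfil3 and Clock held none of these motifs in this stretch. A match is a string of letters and not a measured binding site.

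Most of the called acetylation in the windows lay in regions that cover the gene starts. For each gene the start was placed 10 kb inside the window, on the side given by its strand. In all 9 genes a joined region lay over that point. At Per1 only the Mfp2KO peak crossed it, as the wild-type and Bmal1KO peaks began 0.47 and 0.048 kb after it. At Per2 the wild-type peaks began 0.63 kb after it. The joined regions over these points, called start regions here, held 74.1% of the wild-type window tags, 76.1% of those in Bmal1KO and 70.6% of those in Mfp2KO. They are counted whole and reach into the genes, up to 7.62 kb after the start at Per1. At Dbp and Bhlhe40 they cover most of the gene. Tags are reads scaled by the authors to 10 M per library, and all tag values below are on that scale, with 95% exact Poisson intervals that cover counting error only. The start region was called in all 3 lists for 7 genes, with Nr1d1 absent from the wild-type list and Per2 absent from the Mfp2KO list.

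**Figure D1:**
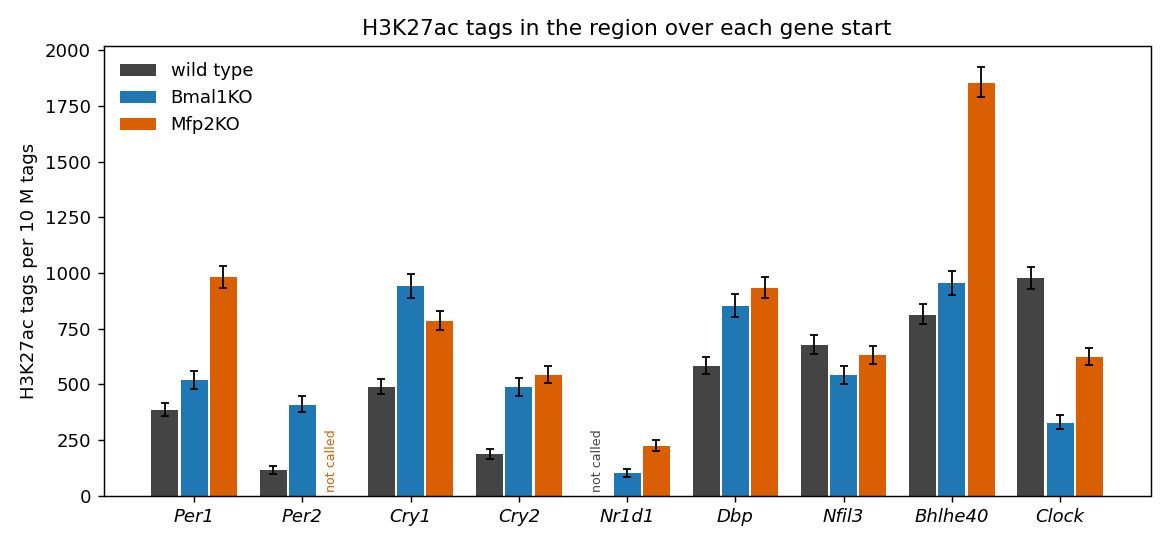
H3K27ac tags per 10 M tags in the region over each gene start, for the single ChIP library of each genotype; error bars are 95% Poisson intervals for counting error only. Bmal1KO is above wild type at Per1, Per2, Cry1, Cry2, Dbp and Bhlhe40 and below it at Nfil3 and Clock, Nr1d1 was not called in wild type, and Per2 was not called in Mfp2KO.

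In the Bmal1KO library the Per, Cry, Dbp and Bhlhe40 starts carried more tags than in wild type, and the Nfil3 and Clock starts carried fewer. Tags were higher in Bmal1KO at 7 of 9 start regions, counting Nr1d1, which was called in the knockout and not in wild type. Of the 9, 3 start regions were at least 2-fold higher or newly called (Per2, Cry2 and Nr1d1), and 1 was at least 2-fold lower (Clock). Among all 9952 regions with at least 100 tags on average over the 3 lists, called strong regions here, 6.09% were at least 2-fold higher or newly called in Bmal1KO and 9.46% were at least 2-fold lower or not called there. The median ratio over the 8 start regions called in both lists was 1.41, against 1.04 over the strong regions called in both. The 25th percentile of those strong regions is -0.45 on the log2 scale, so between 50% and 75% of them had more tags in Bmal1KO. A tag sum grows with the length called, and by tags per kb of called length the regions at least 2-fold denser were Cry2 and Bhlhe40 (2 of 8, against 9.59% of strong regions), while Per2 was not among them.

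In the Mfp2KO library 6 of 9 start regions had more tags than wild type, counting Nr1d1. Of the strong regions called in both lists more than 75% did too, as their 25th percentile was 0.08 on the log2 scale. Of the 9, 4 were at least 2-fold higher or newly called (Per1, Cry2, Nr1d1 and Bhlhe40) against 37.5% of strong regions, and Per2 was not called, against 6.18% of strong regions at least 2-fold lower or not called there. The median ratio was 1.61 over the 7 start regions called in both lists and 1.64 over strong regions. The Mfp2KO library had 57.15% of its tags in peaks, wild type 38.71% and Bmal1KO 37.35%, and the part of this in the differences was not tested. Mfp2KO values are therefore given below for the start regions also as log2 differences from the median strong region, which is at 0.72, and on that scale 3 of the 7 start regions lay above it. Scaled to tags in peaks or to the median strong region, 1 start region (Nr1d1) counted as at least 2-fold higher or newly called, and 2 (Per2 and Clock) as at least 2-fold lower or not called there. Strong regions past those limits were 16.7% higher and 12.0% lower when scaled to tags in peaks, and 13.0% higher and 14.8% lower when scaled to their median. Both comparisons use the same wild-type library.

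**Figure D2:**
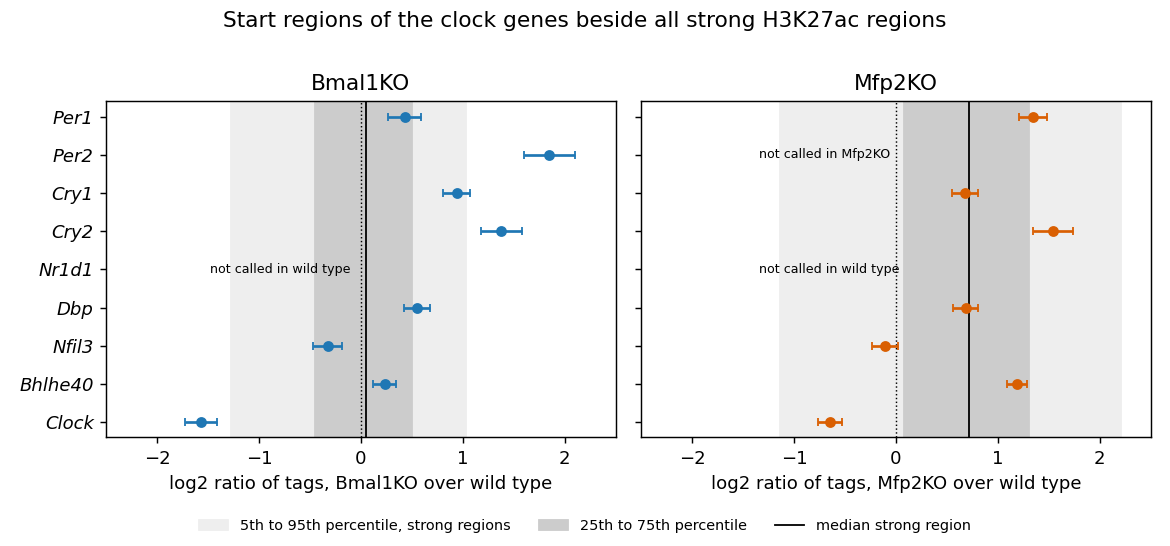
Log2 ratio of start region tags to wild type for each gene in Bmal1KO (left) and Mfp2KO (right), with 95% counting intervals, over bands that show the 5th to 95th and 25th to 75th percentiles of all strong regions called in both lists; the solid line is their median and the dotted line marks equal tags. Per2 and Cry2 lie right of the outer band in Bmal1KO and Clock lies left of it, while in Mfp2KO all 7 points lie inside the outer band.

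Among the Period genes, which encode repressors of the BMAL1 and CLOCK dimer, Per2 differed most between the lists. Its start region (chr1:91383435-91388226) had 114 tags in wild type (98.0 to 132) and 409 in Bmal1KO (374 to 446), and it was not called in Mfp2KO. The Bmal1KO value was 3.59 times wild type (counting interval 3.02 to 4.28). At 1.84 on the log2 scale this was above the 95th percentile of strong regions, which lies at 1.03. Wild type had 2 separate peaks here, of 98.8 and 15.2 tags, and Bmal1KO had 1 peak of 4.79 kb that covered both. The called length in wild type was 2.46 kb, so by density Bmal1KO was 1.84 times wild type (0.88 on the log2 scale), under 2-fold, against a median of 1.18 over strong regions. The nearest Mfp2KO peak was 38.7 kb away. A strong region called in wild type and Bmal1KO but not in Mfp2KO was found in 0.181% of strong regions. This share is kept low by the cut on average tags, since a list without a call adds no tags to the average. Among wild-type peaks of any strength, 41.4% lacked a partner in Mfp2KO, so the 0.181% does not show that the missing call at Per2 is unusual. Enrichment over input at Per2 was low in wild type, 6.25-fold against the authors' limit of 4-fold.

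Per1 followed another order. Its start region (chr11:68984665-68993624) had 386 tags in wild type (356 to 418), 519.7 in Bmal1KO (481 to 561) and 982 in Mfp2KO (933 to 1032). Mfp2KO was thus the highest and wild type the lowest, and the 3 intervals did not overlap. Bmal1KO was 1.35 times wild type (1.20 to 1.51), inside the 25th to 75th percentiles of strong regions. Mfp2KO was 2.54 times wild type (2.32 to 2.80), or 0.63 above the median strong region on the log2 scale. In Mfp2KO the acetylation was called as 1 peak of 8.87 kb, which reached from before the nominal start across both peaks of each of the other lists. Against 6.63 kb in wild type, this gave a density ratio of 1.90, below the strong-region median of 2.03, so the place of Per1 relative to the median turns with the length called.

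The cryptochromes, the other repressors of the dimer, both had more tags in the knockout libraries. The Cry1 start region (chr10:85019196-85022537) had 489.8 tags in wild type (456 to 526), 939.8 in Bmal1KO (887 to 995) and 785 in Mfp2KO (742 to 829.8). Bmal1KO was 1.92 times wild type (1.75 to 2.10), between the 75th and 95th percentiles of strong regions. The authors' fold over input at Cry1 was 30.3 in Bmal1KO, against 13.5 in wild type and 15.4 in Mfp2KO. In Mfp2KO Cry1 was 1.60 times wild type (1.46 to 1.75), which is level with the median strong region (-0.04 on the log2 scale), so its direction turns with the scaling.

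At Cry2 both knockouts stood well above wild type. The start region (chr2:92260841-92265613) had 187 tags in wild type (166 to 209), 486 in Bmal1KO (448 to 526) and 543 in Mfp2KO (507 to 581). Bmal1KO was 2.60 times wild type (2.26 to 2.999), above the 95th percentile of strong regions. Mfp2KO was 2.91 times wild type (2.54 to 3.33). That is 0.82 above the median strong region on the log2 scale, and its log2 value of 1.54 lies above the 75th percentile of 1.31.

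Nr1d1 had an acetylated start in both knockouts and none in the wild-type list. The start region (chr11:98663816-98667452) had 101 tags in Bmal1KO (84.1 to 120.1) and 224 in Mfp2KO (201 to 248), at 8.14-fold and 7.96-fold over input. The nearest wild-type peak lay 5.74 kb upstream. Of all strong regions, 0.362% were called in the 2 knockout lists but missing from the wild-type list, and Nr1d1 was only just strong enough to count as one. The cut on average tags keeps this share low too. Of all peaks, 23.6% in Bmal1KO and 25.4% in Mfp2KO had no wild-type partner. A missing call does not show that the mark is absent, since the peak lists hold no tags for uncalled sequence. Wild type did have acetylation upstream, in a nearer region (chr11:98673189-98675149) and a farther one at the window's edge (chr11:98676058-98681192). The nearer one had 33.2 wild-type tags, 21.1 Bmal1KO tags and 137.5 Mfp2KO tags, over called lengths of 1.10, 0.887 and 1.93 kb. Per kb these are 30.2, 23.8 and 71.2 tags, and the Mfp2KO density was 2.36 times wild type, near the strong-region median of 2.03. The farther one, counted whole, had 131.7, 56.3 and 72.9 tags over 5.10, 1.80 and 1.36 kb, and most of it lies beyond the window. Its tags per kb ran the other way, at 25.8, 31.3 and 53.5.

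Of the D-box pair, the activator Dbp had more tags in the knockouts and the repressor Nfil3 did not. The Dbp start region (chr7:45352985-45358968) had 582 tags in wild type (545 to 620.5), 851 in Bmal1KO (801 to 904) and 934 in Mfp2KO (887 to 983). These are 1.46 times (1.34 to 1.60) and 1.61 times (1.48 to 1.74) wild type. The Bmal1KO value lies just above the 75th percentile of strong regions, and the Mfp2KO value is at the median strong region (-0.03 on the log2 scale), so there its direction too turns with the scaling. The Nfil3 start region (chr13:53129937-53137049) had 677.5 tags in wild type (638 to 719), 540.1 in Bmal1KO (500.2 to 582) and 629.9 in Mfp2KO (591 to 670.3). Bmal1KO was at 0.797 times wild type (0.723 to 0.879), and the intervals of those 2 libraries did not overlap. In Mfp2KO the ratio was 0.930 (0.852 to 1.01), an interval that holds equality, and relative to the median strong region Nfil3 was lower by 0.82 on the log2 scale.

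Bhlhe40, whose product DEC1 represses through E-boxes, held the highest start tags of the 9 genes in Mfp2KO. In Bmal1KO its interval overlapped that of Cry1. The region (chr6:108634597-108642753) had 813 tags in wild type (769 to 858), 955 in Bmal1KO (902 to 1011) and 1854.5 in Mfp2KO (1788 to 1923). Bmal1KO was 1.18 times (1.09 to 1.27) and Mfp2KO 2.28 times (2.14 to 2.44) wild type, the latter 0.47 above the median strong region on the log2 scale. Both lie between the median and the 75th percentile of strong regions of their list.

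Clock, which encodes the partner of BMAL1, had fewer tags in both knockout libraries. Its start region (chr5:76450393-76454054), the only peak called in its 116 kb window in each list, had 975.5 tags in wild type (927 to 1025), 328 in Bmal1KO (297 to 362) and 624.5 in Mfp2KO (586 to 665). In wild type this was the highest of the 9 start regions, and in Bmal1KO it ranked 8 of 9. Bmal1KO was at 0.337 times wild type (0.301 to 0.376). Its log2 value of -1.57 lies below the 5th percentile of strong regions, which is -1.28. Mfp2KO was at 0.640 times wild type (0.590 to 0.693), or 1.36 below the median strong region on the log2 scale, between the 5th and 25th percentiles. Input at Clock also differed: 8.73, 5.47 and 21.3 input tags per kb in wild type, Bmal1KO and Mfp2KO. Relative to wild type, input density was 0.627 times as high in Bmal1KO and 2.44 times in Mfp2KO, against medians of 1.01 and 1.56 over strong regions. With input subtracted, Clock was at -1.59 in Bmal1KO and -0.75 in Mfp2KO on the log2 scale. Input tags there were few beside ChIP tags (wild type 32.0, Bmal1KO 15.5, Mfp2KO 63.6), so subtraction could change these ratios little. The authors' fold over input at Clock was highest for the wild-type library (30.5), with Bmal1KO at 21.2 and Mfp2KO at 9.82. By that fold both knockouts were again lower, but Mfp2KO rather than Bmal1KO was the lowest.

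Relative to wild type, called length and tag density moved in opposite directions at Bhlhe40 in both knockouts, and at Cry1, Cry2 and Nfil3 in Mfp2KO. At the other start regions called in both lists they moved the same way. In Bmal1KO 3 of 9 start regions had less called length than wild type (Nfil3, Bhlhe40 and Clock), against 76.5% of strong regions. In Mfp2KO 6 of 9 did, counting Per2, against 80.4%. Bhlhe40 showed the widest gap between both measures. Wild type had 1 peak of 8.16 kb there, from upstream of the nominal start to 5.75 kb after it. The main peak ended 1.75 kb after the start in Bmal1KO and 2.22 kb after it in Mfp2KO, and the called length, with a further 500-bp peak in Bmal1KO, was 4.59 kb in each knockout. Wild type had 99.6 tags per kb there, Bmal1KO 208 and Mfp2KO 404. Density in turn is lower where a longer call takes in weaker sequence, and the Bmal1KO tags were only 1.18 times wild type there. Input density at Bhlhe40 was 2.58 times wild type in Mfp2KO and 1.22 times in Bmal1KO, and its part in the result was not tested.

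Density was higher than wild type at 6 of 8 start regions in Bmal1KO and at 6 of 7 in Mfp2KO, against 64.8% and 87.8% of strong regions. At least 2-fold denser in Mfp2KO were Cry2 and Bhlhe40, against 50.8% of strong regions, and no other start region lay above the median density ratio of 2.03. Cry2 had 48.8 tags per kb in wild type against 108 in Bmal1KO and 147 in Mfp2KO. At Nfil3 the 3 values were 95.3, 91.5 and 103, and the called length was 7.11, 5.90 and 6.11 kb. At Clock density was also lower, 266 in wild type against 116 and 209.

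**Figure D3:**
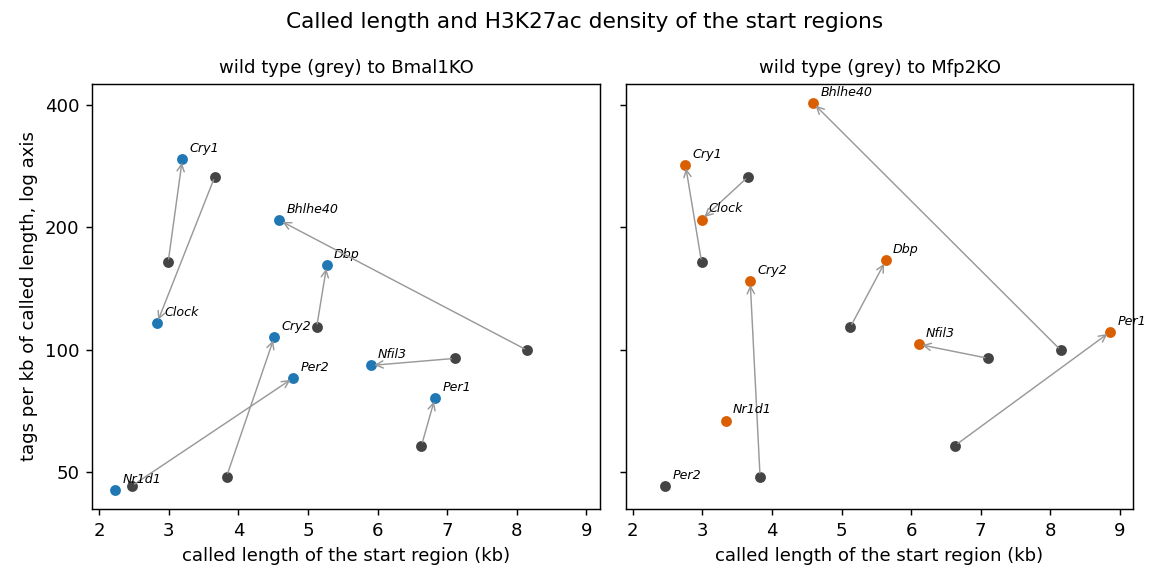
Called length of each start region (x axis, kb) against tags per kb (y axis, log scale) in wild type (grey) and, at the arrow's end, in Bmal1KO (left) or Mfp2KO (right); genes called in only 1 of the 2 lists have no arrow. Bhlhe40 moves from 8.16 kb to 4.59 kb and upward in both, Cry2 moves almost straight upward, and Clock moves downward.

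Away from the starts, acetylation in the windows can belong to neighbouring genes, which were taken from the order of genes in RefSeq. Genes for long noncoding RNAs also overlap Per2, Cry2, Bhlhe40 and Clock on the start side, and Thra overlaps Nr1d1 on its end side. Whether part of the start region tags belongs to these genes was not tested. Per1 has Vamp2 before its start, and a region there (chr11:68977618-68981820) had 576 wild-type, 753 Bmal1KO and 757 Mfp2KO tags. It held more tags than the Per1 start in wild type and Bmal1KO and fewer in Mfp2KO. Per2 has Hes6 beyond its end, and a region at that end (chr1:91339436-91343046) had 233, 323 and 361 tags. Unlike the Per2 start, this region was called in Mfp2KO. Dbp has Sphk2 and Rpl18 beyond or over its end, where a region (chr7:45363035-45369313) had 311, 385 and 1369 tags. Mfp2KO was 4.40 times wild type there (3.99 to 4.87), or 1.42 above the median strong region on the log2 scale, against 1.61 times at the Dbp start. Its called length was close in the 2 lists, and by density the ratio was 4.12. A region upstream of the Cry1 start (chr10:85029331-85031710) had 61.1, 34.3 and 35.8 tags, and per kb it was at 0.752 times wild type in Bmal1KO and 0.788 times in Mfp2KO. Within the Bhlhe40 window a region 6.78 to 8.75 kb after the start had 79.8, 61.0 and 13.6 tags over 1.96, 1.51 and 0.500 kb called. Per kb these are 40.7, 40.5 and 27.2 tags, so most of the gap in Mfp2KO is in the length called.

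**Figure D4:**
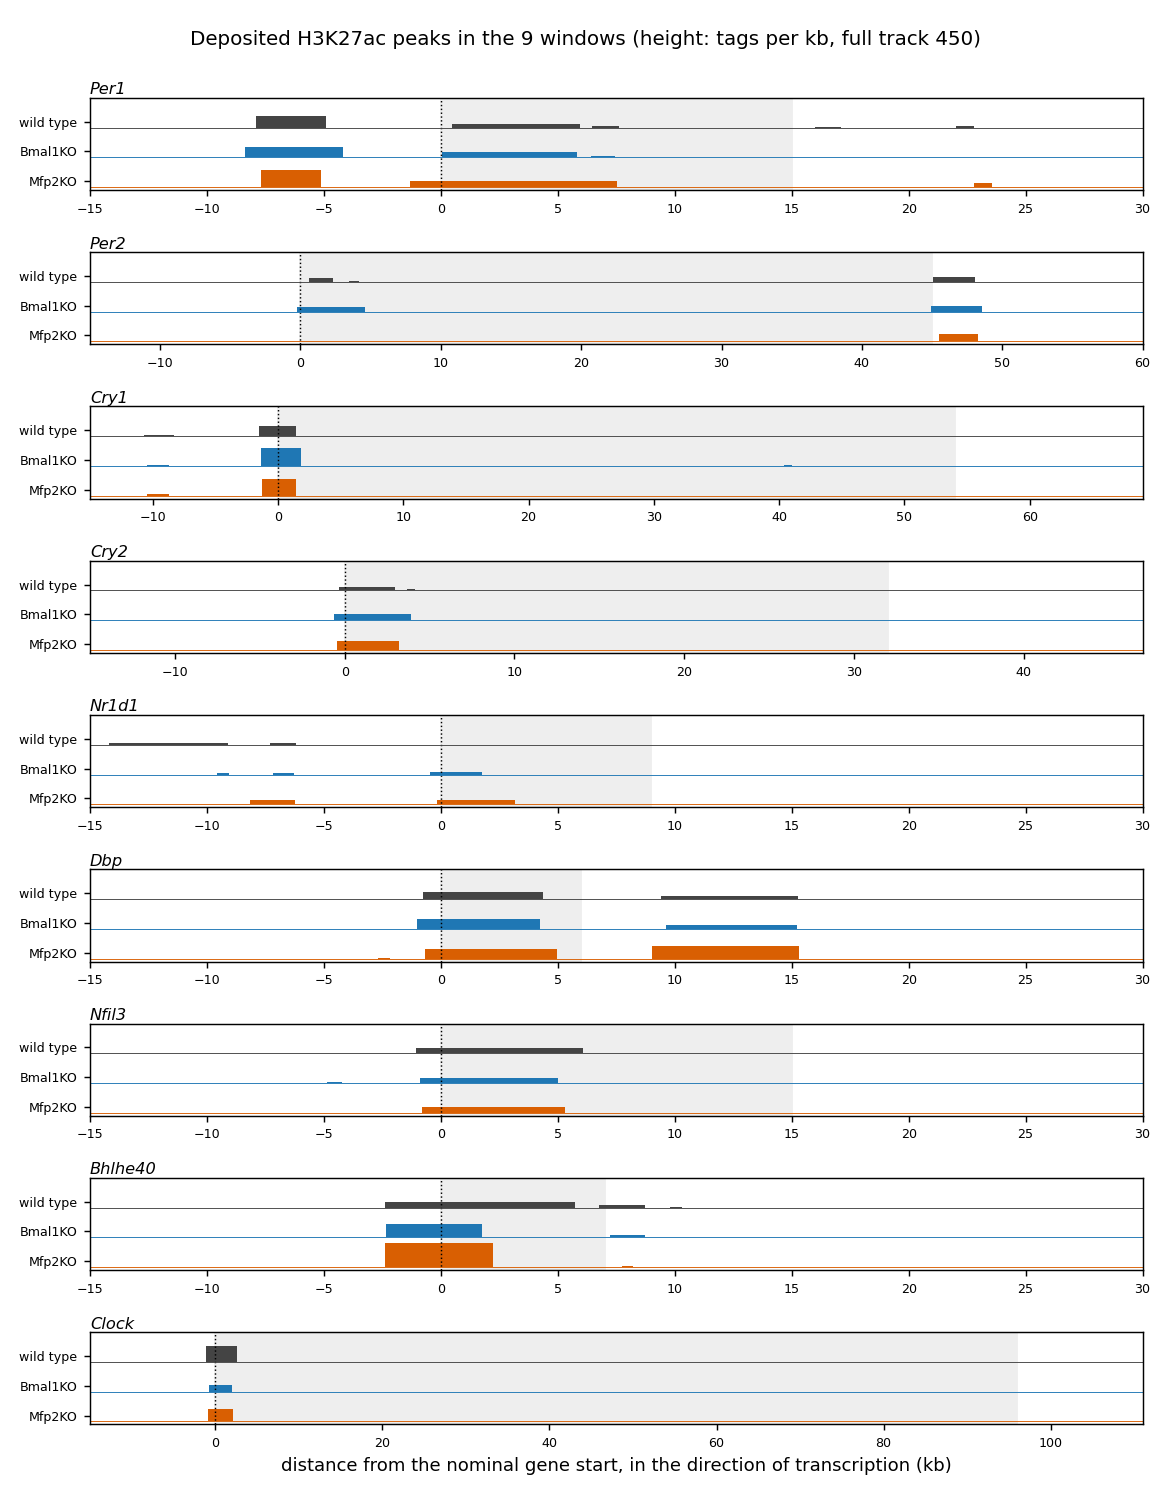
Deposited peaks of each genotype in the 9 windows, by distance from the nominal gene start in the direction of transcription (kb), with block height showing tags per kb on 1 common scale and grey shading for the nominal gene body. Blocks cluster over the starts, the Mfp2KO row is empty at the Per2 start and the wild-type row at the Nr1d1 start; only peaks that overlap a window are drawn, and the weakest are hardly visible at this height.

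Peaks without a partner in another list were few and mostly weak. Of the 22 wild-type peaks, 4 had no Bmal1KO peak, or 18.2% (95% Wilson interval 7.31 to 38.5), against 38.9% of all wild-type peaks. The strongest of these 4 had 22.8 tags, beyond the end of Per1. No Mfp2KO peak was found for 7 of the 22, or 31.8% (16.4 to 52.7), against 41.4% of all, and both wild-type peaks of the Per2 start were among them. Conversely, 3 of the 20 Bmal1KO peaks lacked a wild-type partner, or 15% (5.24 to 36.0), against 23.6% of all Bmal1KO peaks. In Mfp2KO it was 3 of 16, or 18.75% (6.59 to 43.0), against 25.4%. The Nr1d1 start accounts for 1 in each knockout. Another in Mfp2KO, 22.8 to 23.6 kb after the Per1 start, had 53.9 tags and began at the base after a wild-type peak ended. The Wilson intervals treat peaks as independent draws, but several peaks share a window. They are therefore no test of a difference from all peaks. Of the 24 joined regions 14 were called in every list, against 37.2% of all joined regions.

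Over whole windows, with all overlapping peaks summed, tags were higher than wild type in 6 of 9 windows in Bmal1KO and in 7 of 9 in Mfp2KO. They are set beside the 8152 genomic tiles of 50 kb with at least 100 tags on average. Tiles are of 1 size and hold peaks by midpoint, while windows span 26 to 116 kb and sum overlapping peaks whole. Of tiles with tags in both lists, between 25% and 50% were higher in Bmal1KO and more than 75% in Mfp2KO. In Bmal1KO 2 windows were at least 2-fold higher (Per2 at 2.11 and Cry2 at 2.60 times wild type), against 4.98% of tiles. With windows lengthened by 15 kb at each end the log2 ratios were 0.67 and 0.93, and Per2 was at 0.45 as tags per kb, all under 2-fold. Only the Clock window was at least 2-fold lower, against 11.2% of tiles. In Mfp2KO 4 windows were at least 2-fold higher, against 32.5% of tiles: Cry2 at 2.91, Dbp at 2.59, Nr1d1 at 2.19 and Bhlhe40 at 2.08 times wild type. None was at least 2-fold lower, against 7.46% of tiles. With windows lengthened by 15 kb at each end, Nr1d1 was at 0.52 and Bhlhe40 at 0.92 on the log2 scale, both under 2-fold. With windows shortened by 10 kb at each end, Dbp was at 0.68, under 2-fold, and Per1 rose to 1.35. Cry2 stayed past 2-fold under both settings. Scaled to tags in peaks or to the median tile, 0 windows were at least 2-fold higher in Mfp2KO and 1 (Clock, at -1.21 and -1.27 on the log2 scale) was at least 2-fold lower. Tiles past those limits were then 12.7% higher and 13.5% lower by tags in peaks, and 11.3% higher and 14.7% lower by the median tile. The median window ratio was 1.27 in Bmal1KO and 1.79 in Mfp2KO, beside 0.990 and 1.55 over tiles. The Nr1d1 window total in Bmal1KO, 0.793 times wild type (0.650 to 0.970), rests on a wild-type peak that reaches beyond the window. Its log2 ratio was -0.33 as given, 1.98 with peaks placed by their midpoint, 1.60 with peaks of at least 6-fold and 0.09 with longer windows, so its direction turns with the rule.

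The Bmal1KO ChIP library was the shallowest at 12.5 M tags, against 15.8 M for each of the other two. Median input density over all peaks was 3.99, 4.31 and 5.61 tags per kb per 10 M for wild type, Bmal1KO and Mfp2KO. Input subtraction changed the direction of none of the start region ratios, and the Per2 ratio in Bmal1KO became 1.97 on the log2 scale. The other clock genes, macrophage markers and the targeted Bmal1 and Mfp2 genes were not analysed here, since the gene table used is of another build than the peaks.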

How the data were processed

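H3K27ac ChIP and input libraries were each sequenced once per genotype. Growth was in DMEM plus 5% FBS, fixation in 1% formaldehyde and precipitation with Abcam ab4729, per the labels' protocols. The submitters' processing notes name HOMER 5.1, BWA 0.7.19-r1273, Picard 3.4.0, fastp 1.0.1, MACS3 3.0.3 and SAMtools 1.23, with build mm39. Peaks were called by the authors for each library against its own input with HOMER findPeaks in histone style, per the file headers, with windows of 500 bp, at least 4-fold over input and a p-value limit of 1.00e-04. The deposited lists give each peak's tag signal scaled to 10 M tags, its input tags, the fold (a ratio) over input, a p-value and a findPeaks score. The p-value and the score were not used in any result. The input column is scaled to the ChIP library in Bmal1KO and given as counted in the other lists, so input was brought to 10 M tags before use. A list holds called peaks only, so tags of uncalled sequence are not known. A sum over a region and its tags per kb both move with the length called.

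Peaks overlapping a window by at least 1 bp were summed whole. In the tiles, each peak was counted in the tile that holds its midpoint. Tag intervals are exact Poisson, and ratio intervals are exact binomial conditional on the sum, both at 95% from tags as counted. Reads carry no molecular identifiers, so intervals cover counting error only and no variation between cultures. Members and lists were chosen with earlier results of these data known. All 9 genes are named, with each region called in 1 or 2 lists that has at least 20 tags in some list. Strands came from the promoter table, and for Per2 and Bhlhe40 from general knowledge. The gene and promoter tables are RefSeq in GRCm38.p6 and were used for names, neighbours and sequence only. Strong regions, their scaling and density, tile shares under other scalings, and the E-box variant, were added after seeing the data. Scripts used Python 3.11.15, pandas 2.3.3, NumPy 2.4.6, SciPy 1.17.1 and Matplotlib 3.10.9, and were tested on simulated data.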

Additional observations from a re-analysis of the deposited data

How the results depend on the processing

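With 1 library per genotype, no replicate could be left out. No paired analysis was possible because each genotype has 1 ChIP library and the labels carry no replicate numbers. The count of windows with fewer tags in Mfp2KO (2) was 4 when scaled to the median tile and 1 as tags per kb. Windows with less called length numbered 6 in Bmal1KO and 3 with windows shortened by 10 kb at each end. In Mfp2KO they numbered 7, and 4 with peaks of at least 6-fold. Of strong regions, 76.5% had less called length in Bmal1KO and 80.4% in Mfp2KO, and no such share was taken over tiles. Wild-type peaks without a Bmal1KO peak (4) numbered 2 with 6-fold peaks, 1 with peaks of at least 20 tags, 0 with shortened windows and 7 with windows lengthened by 15 kb. Those without a Mfp2KO peak (7) numbered 3 under each of the first 3 settings. Bmal1KO peaks without a wild-type peak (3) numbered 1 with at least 20 tags and 5 with lengthened windows, and Mfp2KO ones (3) numbered 1 with shortened and 12 with lengthened windows. The median log2 ratio over windows in Bmal1KO (0.35) was 0.47 with 6-fold peaks, 0.49 with shortened windows, 0.47 by midpoint, 0.40 scaled to tags in peaks and 0.45 as tags per kb. In Mfp2KO (0.84) it was 1.19 with 6-fold peaks, 0.68 with shortened and 0.57 with lengthened windows, 0.28 scaled to tags in peaks, 0.21 scaled to the median tile and 1.05 as tags per kb. In Mfp2KO the start regions at least 2-fold higher (4) numbered 1, and those at least 2-fold lower (1) numbered 2, both when scaled to tags in peaks and to the median strong region. With tiles of 25 and 100 kb, the percent at least 2-fold higher was 6.55 and 3.79 in Bmal1KO and 35.2 and 29.4 in Mfp2KO, and the percent at least 2-fold lower was 12.2 and 10.1, and 8.09 and 6.79. With strong regions set at 50 or 200 tags, the percent at least 2-fold lower was 16.6 and 4.54 in Bmal1KO (9.46 at 100) and 12.5 and 2.48 in Mfp2KO (6.18 at 100). Member genes with an E-box (2) numbered 4 with the variant. The cause of these shifts was not tested, beyond the smaller or larger peak sets that the settings make.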
